A study of Danio rerio with 6 samples.

Results

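The claudin genes were followed by bulk RNA-seq in zebrafish kidneys (strain EK, about 2.5 months of age). The members were all rows of the count files whose symbol, case ignored, begins cldn. They numbered 41 of 32266 rows. The kidneys came from wild type fish or from runx1-/- fish (allele del25, hg97), called runx1 null here, which are mutant in a transcription factor gene of blood formation. Each genotype had 3 libraries, each from a pool of 3 kidneys, so the spread between libraries is that between pools of fish and not between single fish. The labels do not give sex or say how neighbouring tissue was removed. In fish the kidney is also the site where adult blood is made, so renal epithelium is a part of the sampled tissue beside blood cells.

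Claudins are small proteins that cross the membrane several times and join those of the next cell to form tight junction strands. Some claudins seal the space between epithelial cells, and others form pores that let selected ions or water pass. In the mammalian nephron each segment uses its own claudins, so that the proximal tubule is leaky and the collecting duct is tight. Scaffold proteins of the ZO family (TJP genes) bind the tail of most claudins and tie the strands to the cytoskeleton. The set also holds 2 genes named for a claudin domain, cldnd1a and CLDND1, which the rule takes in by their symbols and which differ from cldnd. Symbols in capitals follow human nomenclature in the symbol table used, and CLDN5, CLDN10 and CLDN11 were each listed for 2 zebrafish genes, which are told apart here by identifier.

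The libraries held 16147770 to 30577287 expected counts, and 33 to 39 claudins had a count in each. runx1 itself (ENSDARG00000087646) had 8, 5 and 7 counts in the wild type libraries, against 0, 5 and 5 for runx1 null, too few to check the label of a single library. The renal cadherin gene CDH17, which defines kidney epithelium in zebrafish, was present in all pools, at 84.5, 779 and 438 CPM in wild type and 634, 620 and 1194 CPM in runx1 null pools. CPM are counts scaled to library size after TMM normalization, which compares a gene between pools but, without gene lengths, not genes with each other. Wild type pool 1 stood apart. Its score for a list of renal epithelium regulators, the mean log2 CPM of the tested list genes, was 2.49 against 4.41 to 5.82 in the other 5 pools. Its endothelium score was 2.94 against 4.10 to 4.47, while its erythroid score was 11.4 against 10.1 to 10.6. Less tissue of a kind in a pool and less RNA per cell cannot be told apart in bulk samples.

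Of the 41 claudins, 25 were expressed in the kidney pools, meaning that they passed the filter on low counts and had a mean of at least 1 CPM over the 6 pools. Their means ran from 1.02 CPM for cldn33b to 43.1 CPM for CLDN12. Such a mean can rest on few pools. The level of cldn15la was 35.7 CPM in runx1 null pool 3 and at most 0.633 CPM elsewhere. For cldnd there were 0 counts in wild type pool 1 and in runx1 null pool 1. A further 15 had some counts but failed 1 or both of these conditions. Among them cldn23.1 had a mean of 1.36 CPM but did not pass the filter, with most of its counts in a pair of pools. The nearest below 1 CPM was cldn18, at 0.935 CPM. No count was seen for cldn26 in any pool, which allows up to 3 counts per library, or 0.0912 to 0.180 CPM. Between 19 and 28 claudins reached 1 CPM in a pool, with the most in runx1 null pool 3. The claudins together summed to 168, 229 and 294 CPM for wild type, and 254, 211 and 414 CPM for runx1 null.

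Several claudins with known nephron roles in mammals were expressed, among them CLDN2, CLDN10 ENSDARG00000104528 and CLDN19, while CLDN8 had few counts. CLDN2 had 13 to 319 counts per library and CLDN10 ENSDARG00000104528 had 46 to 1089, and both are given below. CLDN19 had 13 to 106 counts per library. CLDN19, which in the mammalian thick ascending limb takes part in calcium and magnesium reabsorption, was at 0.627, 4.19 and 1.88 CPM in wild type and 4.43, 0.947 and 0.853 CPM in runx1 null pools. CLDN8 (ENSDARG00000099950), a collecting duct claudin in mammals, had at most 5 counts in any library, while cldn8.2, given below, had up to 60. Of the CLDN10 pair, ENSDARG00000104528 was expressed and ENSDARG00000058937 had no more than 1 count in a library. The claudins cldn10d, cldn10e, cldnj and cldn23l also stayed at a handful of counts or fewer, so that no comparison of them was possible at this depth.

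The 25 expressed claudins were grouped by the Pearson correlation of their log2 CPM over the 6 pools, with average linkage and a tree height of 0.5. The grouping is a description of these 6 libraries, which share depth, scaling and tissue makeup, and no test was made of it. It gave 7 groups, of which 1 held 12 genes and 1 held 5, with 3 pairs and 2 single genes. Over the 300 pairs of claudins the median r was 0.13, against about 0 over pairs of the 16370 genes at the same limit. Pairs with r over 0.8 made up 7.67% of claudin pairs and 7.53% of all pairs, so the share of close pairs was near that of other genes.

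**Figure D1:**
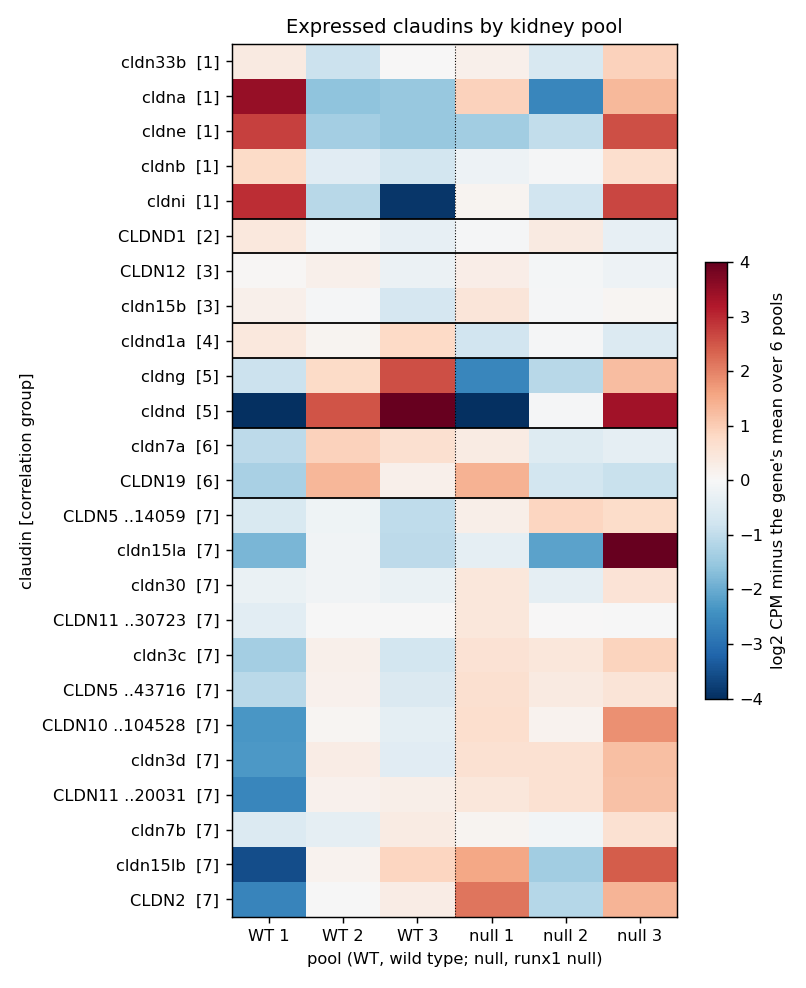
Log2 CPM of the 25 expressed claudins in the 6 kidney pools, each minus its own mean over the pools, with genes in tree order and the correlation group in brackets. Colours stop at 4 units. Group 1 is red in wild type pool 1 and runx1 null pool 3, group 5 in wild type pools 2 and 3 and runx1 null pool 3, and most of group 7 is blue in wild type pool 1.

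**Figure D2:**
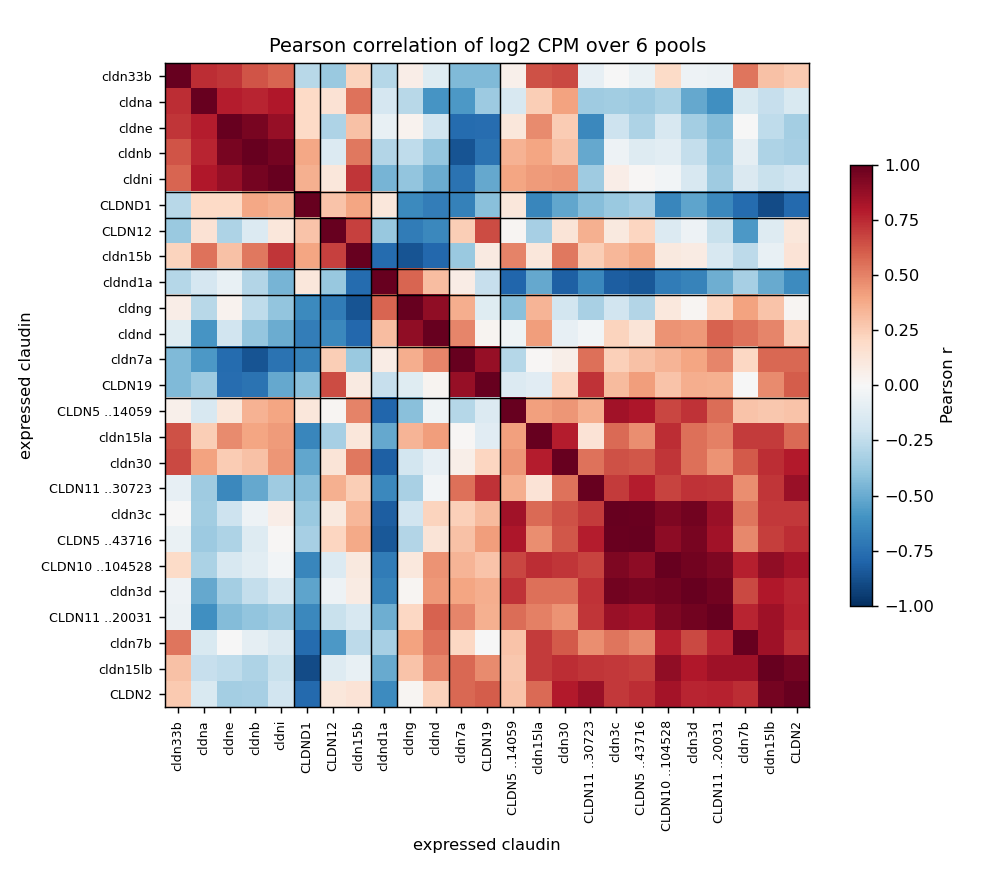
Pearson r over 6 pools between each pair of the 25 expressed claudins, in tree order, with black lines between the 7 groups. The block of 12 genes at the lower right has a median r of 0.72.

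The largest group held 12 claudins, and 9 of them were lowest in wild type pool 1 and 8 were highest in runx1 null pool 3. Genes grouped by correlation share such pools by construction, and the share over all genes was not computed. It contains cldn3c, cldn3d, CLDN10 ENSDARG00000104528, CLDN2, cldn7b, cldn15lb, cldn15la, cldn30 and both genes of the CLDN5 and CLDN11 pairs. The median r within it was 0.72, with a lowest pair at 0.13. Summed over the group, the level was 38.3, 104 and 85.8 CPM in wild type and 157, 122 and 252 CPM in runx1 null pools.

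The neighbours cldn3c (ENSDARG00000069503) and cldn3d (ENSDARG00000015955) are zebrafish genes formerly called cldnh and cldnc. cldn3d was at 4.39, 27.1 and 16.02 CPM in wild type pools and 33.5, 33.8 and 50.5 CPM in runx1 null pools. cldn3c was at 7.81, 23.3 and 12.1 CPM in wild type and 30.4, 27.7 and 37.3 CPM in runx1 null pools. Both were lowest in wild type pool 1 and highest in runx1 null pool 3, and no runx1 null pool lay below a wild type pool. Their r with each other was 0.96.

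Pore-forming claudins of the mammalian proximal tubule and thick ascending limb include CLDN2, a channel for cations and water, and CLDN10. CLDN10 ENSDARG00000104528 was at 2.22, 12.1 and 8.54 CPM in wild type and 18.2, 12.4 and 40.4 CPM in runx1 null pools. Its lowest runx1 null pool, pool 2, was just above the highest wild type pool. CLDN2 (ENSDARG00000044387) was at 0.627, 4.23 and 5.35 CPM in wild type and 19.1, 1.93 and 11.05 CPM in runx1 null pools. Here the genotypes overlapped, because runx1 null pool 2 was lower than wild type pools 2 and 3. cldn15lb (ENSDARG00000100844), related to a cation pore of the mammalian gut, was at 0.241, 4.07 and 6.72 CPM in wild type and 10.9, 1.35 and 20.2 CPM in runx1 null pools. CLDN2 and cldn15lb had an r of 0.95 with each other.

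CLDN5 is best known as the claudin of endothelial cells, where it seals the blood-brain barrier. CLDN5 ENSDARG00000014059 was at 5.06, 6.84 and 3.77 CPM in wild type and 9.16, 14.1 and 12.9 CPM in runx1 null pools. CLDN5 ENSDARG00000043716 was at 1.16, 2.89 and 1.67 CPM in wild type and 4.01, 3.28 and 3.71 CPM in runx1 null pools. All runx1 null pools were above all wild type pools for both genes. Their levels followed the endothelium list unequally, with an r of 0.55 and rho of 0.60 for the first gene (exact permutation p 0.296 and 0.242, adjusted over 200 relations 0.610 and 0.620). For the second gene they were 0.89 and 0.89 (exact permutation p 0.0125 and 0.0333, adjusted 0.125 and 0.333). Without wild type pools 1 and 3 these were -0.37 and 0.31, so the relation of the second gene rested on those pools.

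The CLDN11 pair, named for the claudin of myelin and of the testis barrier in mammals, was uneven. CLDN11 ENSDARG00000020031 was at 0.482, 3.80 and 4.01 CPM in wild type and 4.61, 5.18 and 7.68 CPM in runx1 null pools, an order close to that of cldn3d (r 0.96). CLDN11 ENSDARG00000030723 varied little, from 3.23 CPM in wild type pool 1 to 5.98 CPM in runx1 null pool 1. cldn7b (ENSDARG00000014047), whose mammalian relative is found in distal segments and the collecting duct, was at 12.1, 13.9 and 22.1 CPM in wild type and 19.0, 16.6 and 26.9 CPM in runx1 null pools. Its genotypes overlapped.

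Set beside the marker lists, several claudins of the largest group varied with the distal nephron list, and nearly as closely with the renal epithelium and endothelium lists. The score of the distal tubule and duct list, a list of 11 matched genes of which 10 were tested, was 1.75, 3.73 and 3.28 in the wild type pools against 3.99, 3.86 and 4.63 for runx1 null. For cldn3d the r with that score was 0.99 and Spearman's rho 0.94 (n = 6, exact permutation p 0.00278 and 0.0167, adjusted over 200 relations 0.0758 and 0.238), and r was 0.98 without the 2 pools with the most distant scores. For cldn3c the r was 0.95 and rho 1 (exact permutation p 0.00139 and 0.00278, adjusted 0.0694 and 0.139), and r was 0.996 without those pools. CLDN10 ENSDARG00000104528 had an r of 0.99 and rho of 1 with it (exact permutation p 0.00139 and 0.00278, adjusted 0.0694 and 0.139), with an r of 0.93 without those pools. CLDN5 ENSDARG00000043716 had an r of 0.92 and rho of 0.94 with it (exact permutation p 0.00833 and 0.0167, adjusted 0.104 and 0.238), with an r of 0.999 without those pools. CLDN11 ENSDARG00000020031 had an r of 0.97 and rho of 0.89 (exact permutation p 0.00694 and 0.0333, adjusted 0.0992 and 0.333), but an r of 0.57 without those pools, so that relation rested on them. The distal list was added to these relations after seeing the data. With the score of the renal epithelium regulators the r of cldn3d was 0.98 and rho 0.83 (exact permutation p 0.00556 and 0.0583, adjusted 0.0926 and 0.354). That of cldn3c was 0.93 with a rho of 0.94 (exact permutation p 0.00417 and 0.0167, adjusted 0.0758 and 0.238). For CLDN10 ENSDARG00000104528 they were 0.97 and 0.94 (exact permutation p 0.00278 and 0.0167, adjusted 0.0758 and 0.238). Without wild type pool 1 and runx1 null pool 3 the r with the renal score was 0.81, 0.86 and 0.85 for these genes in turn. With the endothelium score cldn3d had an r of 0.96, cldn3c 0.89 and CLDN10 ENSDARG00000104528 0.90 (exact permutation p 0.0125, 0.00972 and 0.00417, adjusted 0.125, 0.114 and 0.0758), with rho of 0.83, 0.94 and 0.94 (exact permutation p 0.0583, 0.0167 and 0.0167, adjusted 0.354, 0.238 and 0.238). Without wild type pools 1 and 3 those r were 0.40, 0.43 and 0.70. The lists share the low values of wild type pool 1, and whether a claudin goes with 1 of them more than with another was not tested. None of the 200 relations of 25 claudins with 8 lists passed after adjustment, while 34 had an unadjusted exact permutation p under 0.05. With 6 pools the smallest p that permutations can give is 0.00139 for r, and a rho of 1 gave 0.00278. At these floors 1 relation alone could not pass adjustment over 200, whatever its strength, so the lack of passing relations says little. The most similar of the 178 list genes at the same limit were sought for the 3 claudins with the highest mean CPM. For CLDN12 they were EPOR of the erythroid list and hsd3b1 and cyp11c1 of the interrenal list, with r of 0.89, 0.82 and 0.79. The 3 most like cldn3d were clcnk, SLC12A1 and TFAP2B, with r of 0.99, 0.99 and 0.99, all from the distal list. Those of cldng are given below. Being the highest of 178 values over 6 pools, these r are high by selection and assign no tissue. clcnk encodes a renal chloride channel, and SLC12A1 the salt carrier that marks the thick ascending limb in mammals. cldn15lb and CLDN2 varied with the liver list, whose 10 genes summed to 48.9, 4846 and 6272 CPM in wild type and 18781, 1383 and 27678 CPM in runx1 null pools. For cldn15lb the r with the liver score was 0.99 and rho 1 (exact permutation p 0.00139 and 0.00278, adjusted 0.0694 and 0.139). For CLDN2 they were 0.96 and 0.94 (exact permutation p 0.00417 and 0.0167, adjusted 0.0758 and 0.238). Without the 2 pools of most distant score r was 0.96 for cldn15lb and 0.88 for CLDN2. With the renal epithelium score their r was 0.87 and 0.82 (exact permutation p 0.0222 and 0.0403, adjusted 0.165 and 0.244). Without wild type pool 1 and runx1 null pool 3 it was 0.098 and 0.35. With the endothelium score r was 0.81 and 0.78. The liver score also varied with CLDN10 ENSDARG00000104528, CLDN11 ENSDARG00000020031 and cldn3d, at r of 0.90, 0.90 and 0.86 (exact permutation p 0.0167, 0.0389 and 0.0528). The part of liver transcripts in the levels of these claudins was not tested.

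The group of 5 held cldne, cldni, cldna, cldnb and cldn33b, and its level sat mostly in 2 pools. cldne (ENSDARG00000043128) was at 10.7, 0.554 and 0.486 CPM in wild type and 0.539, 0.744 and 9.57 CPM in runx1 null pools. cldni (ENSDARG00000054616) was at 12.3, 0.672 and 0.0304 CPM in wild type and 1.68, 0.880 and 10.23 CPM in runx1 null pools. Wild type pool 1 and runx1 null pool 3 were thus the high pools, a pattern across the genotypes and not between them. cldnb (ENSDARG00000009544), known in zebrafish from the lateral line and other epithelia, was more even, at 8.15, 3.52 and 2.86 CPM in wild type and 4.13, 4.67 and 7.68 CPM in runx1 null pools. cldna reached 5.35 CPM in wild type pool 1 and at most 1.11 CPM elsewhere.

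The same pair of pools was the highest for 11 of the 40 claudins with a count. The share of all genes with this pair highest was not computed. Among the 11 are cldn10d, with 1 and 3 counts in these pools, and cldnk, at 0.772 and 0.816 CPM against up to 0.638 CPM elsewhere. Other genes not classed as expressed, named here after their values were seen, showed the pattern more strongly. cldn23.1 (ENSDARG00000028096) was at 3.47, 0.198 and 0.0608 CPM in wild type and 0.239, 0.203 and 3.97 CPM in runx1 null pools. cldn8.2 had 60, 2 and 6 counts in wild type libraries against 1, 0 and 52, and cldnf had 39, 4 and 3 against 1, 0 and 42. cldn1, whose mammalian relative keeps the epidermis watertight, had 10, 1 and 4 counts in wild type libraries against 0, 1 and 13.

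Epidermal transcripts were high in these pools as well. All 9 genes of the skin epidermis list were matched and 7 tested, and their score was 5.52, 1.76 and 1.25 in the wild type pools against 2.66, 1.82 and 4.37 for runx1 null. Summed over the list, they ran from 81.0 to 905 CPM in wild type and from 153 to 385 CPM in runx1 null pools. The keratin gene krt5 of basal epidermis was at 424, 2.10 and 1.03 CPM in wild type and 28.8, 3.42 and 26.1 CPM in runx1 null pools. In runx1 null pool 1 krt5 was thus about as high as in pool 3, although cldne and cldni were several times lower there. TP63, a regulator of the same layer, was at 5.98, 1.38 and 1.82 CPM in wild type and 1.496, 2.84 and 4.19 CPM in runx1 null pools. No gene of the list was at 0 in all pools, but cyt1 and cyt1l stayed at or below 0.556 CPM. The score was highest in wild type pool 1 and runx1 null pool 3, with runx1 null pool 1 next at 2.66. Correlations with it rest largely on the highest pools and are not printed, though they are among the 200 relations above, of which 0 passed after adjustment. The part of these transcripts in the claudin levels was not tested.

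**Figure D3:**
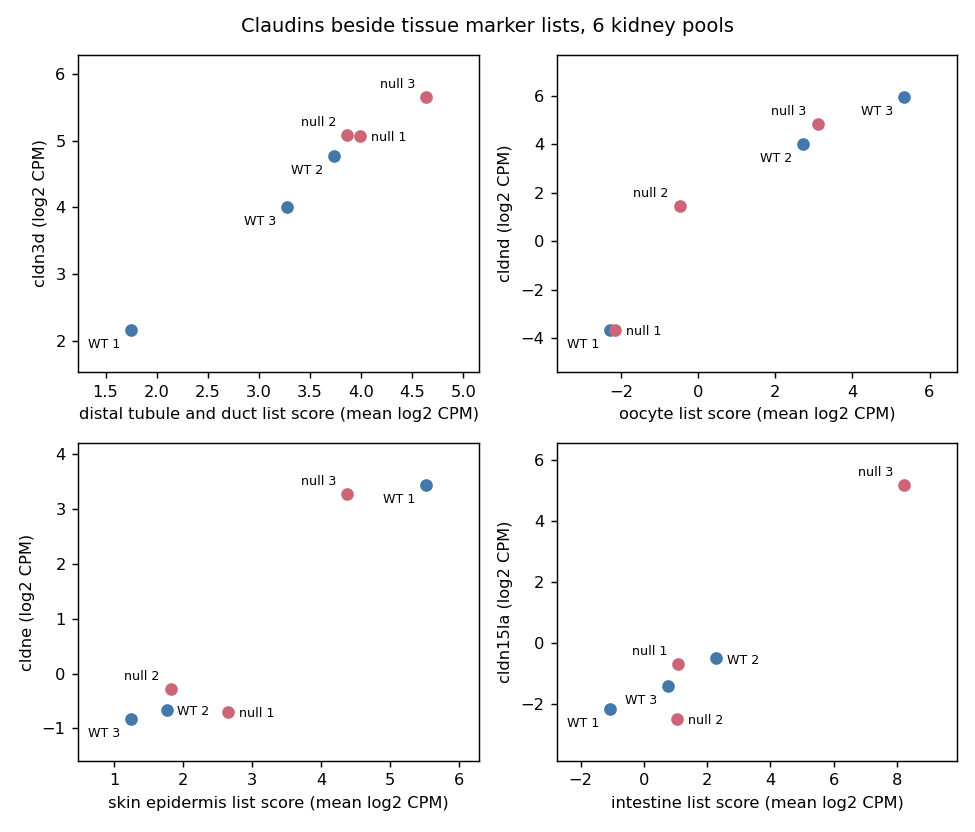
Log2 CPM of 4 claudins (vertical) against the score of a marker list in the same pool (horizontal, mean log2 CPM), with wild type pools in blue and runx1 null pools in red. cldn3d follows the distal list over all pools and cldnd the oocyte list, while cldne and cldn15la are high only in the 2 pools and the 1 pool with high skin and intestine scores.

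A pair of claudins, cldng (ENSDARG00000003701) and cldnd (ENSDARG00000006580), varied together, with an r of 0.89. cldnd had 0 counts in wild type pool 1 and in runx1 null pool 1, which allows up to 0.145 and 0.180 CPM, and was at 15.9 and 62.7 CPM in the other wild type pools and 2.64 and 28.8 CPM in runx1 null pools 2 and 3. cldng was at 7.14, 21.99 and 77.7 CPM in wild type and 2.03, 5.92 and 30.6 CPM in runx1 null pools. Wild type pool 3 was the highest for both and the genotypes overlapped widely. The oocyte list, with 14 of 15 genes matched and 13 tested, had the same order of pools at its top. Its summed level was 5.06, 155 and 759 CPM in wild type and 3.65, 28.1 and 219 CPM in runx1 null pools. For cldnd the r with the oocyte score was 0.96 and rho 0.99 (n = 6, exact permutation p 0.00278 and 0.00556, adjusted 0.0758 and 0.222), and r was 0.95 without the 2 most distant pools. For cldng the r was 0.95 and rho 0.83 (exact permutation p 0.0167 and 0.0583, adjusted 0.145 and 0.354), and r was 0.996 without those pools. The list genes most like cldng were ZAR1, org and buc, with r of 0.98, 0.96 and 0.96, all of the oocyte list. No oocyte gene of the list was at 0 in all pools, and GDF9, an oocyte growth factor gene, was at 0, 0.633 and 8.27 CPM in wild type and 0, 0.0677 and 0.964 CPM in runx1 null pools. The part of oocyte transcripts in these levels was not tested.

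cldn15la (ENSDARG00000016081), a claudin that marks the intestinal epithelium in zebrafish, was high in 1 pool alone. It was at 0.145, 0.633 and 0.304 CPM in wild type and 0.539, 0.101 and 35.7 CPM in runx1 null pools. The intestinal fatty acid binding protein gene FABP2 was at 0.145 to 5.89 CPM in 5 pools and at 597 CPM in runx1 null pool 3. The 4 matched of 7 intestine genes summed to 4.39 to 32.5 CPM in those 5 pools and to 1872 CPM in that pool. Pancreas list genes were also highest there, at a sum of 375 CPM against 9.10 to 23.7 CPM. Within the largest group cldn15la therefore stands apart by size, although the correlation places it there.

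The remaining groups were small. cldn7a and CLDN19 formed a pair with an r of 0.87, and cldn7a (ENSDARG00000036376) was at 1.16, 4.82 and 3.95 CPM in wild type and 3.11, 1.73 and 1.93 CPM in runx1 null pools. CLDN12 (ENSDARG00000003927), which in mammals lacks the usual scaffold-binding tail, was the most even of the claudins with high counts. It was at 44.0, 49.0 and 36.5 CPM in wild type and 51.8, 40.5 and 36.9 CPM in runx1 null pools. It was paired with cldn15b at an r of 0.68, which ran from 3.50 to 8.02 CPM. CLDND1 (ENSDARG00000052386) stood alone, at 19.0, 13.1 and 11.3 CPM in wild type and 13.6, 18.03 and 11.2 CPM in runx1 null pools. cldnd1a (ENSDARG00000104439) also stood alone, and its values are given below with the comparison of genotypes.

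Neighbouring claudins did not always share a profile. In the RefSeq gene order of assembly GRCz12tu, 6 of the claudins lie side by side on chromosome 21, with at most 1 gene between them, in the order cldn3c, cldn3d, cldnb, cldn29, cldnd and cldn30. Coordinates are not given, because the submitters' processing notes name another build. The end pair cldn3c and cldn3d had an r of 0.96, whereas the next neighbours cldn3d and cldnb had an r of -0.24. cldnd and cldn30 had an r of -0.08. On chromosome 15 the order is cldnj, cldne, cldnf and cldna, and of these cldne, cldnf and cldna were all highest in wild type pool 1 with runx1 null pool 3 next, while cldnj had at most 1 count per library. Related neighbours can share reads, so the division of counts within each row of genes carries an uncertainty that the expected counts do not show.

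Between the genotypes no claudin passed an adjusted p of 0.05, and most of those that differed without overlap were higher in runx1 null pools. Log2 fold changes, also called log2 differences, are edgeR's for runx1 null over wild type. In edgeR 0 of the 30 tested claudins passed, where 0% of the 18864 genes tested were called, and the smallest adjusted p among the claudins was 0.787. In DESeq2 0 passed as well, where 0.557% of genes were called in either direction and 0.191% higher in runx1 null, with a smallest adjusted p of 0.0590. At an unadjusted edgeR p under 0.05 there were 5 claudins, all higher in runx1 null, against 2.57% of all genes called higher at that limit and 5.23% in either direction. DESeq2 gave 6 at its unadjusted p under 0.05, all higher, where 6.76% of genes were called, 3.34% higher and 3.41% lower, and returned no p for cldn15la, cldni and cldne. For 9 claudins, 8 higher and 1 lower, the genotypes did not overlap, against 12.5% of all genes in either direction and 6.24% in each. These counts of 5, 6 and 9 claudins include cldn10l2 and CLDN23, which entered the test because of their runx1 null libraries. The median log2 fold change was 0.35 over the 30 tested claudins and -0.03 over all genes, and 19 of the 30 were above 0 against 47.9% of all genes. That median was 0.62 without wild type pool 1 and 0.20 without wild type pool 2, where those of all genes were 0.03 and -0.04. The 11 untested claudins had too few counts, or counts in too few pools, so the 30 are not the whole family. Members that vary together do not count as separate observations: 12 of 12 in the largest group had a fold change above 0, and all were measured in the same 6 pools. A 3 against 3 exact permutation test of a single gene cannot give a p under 0.1.

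**Figure D4:**
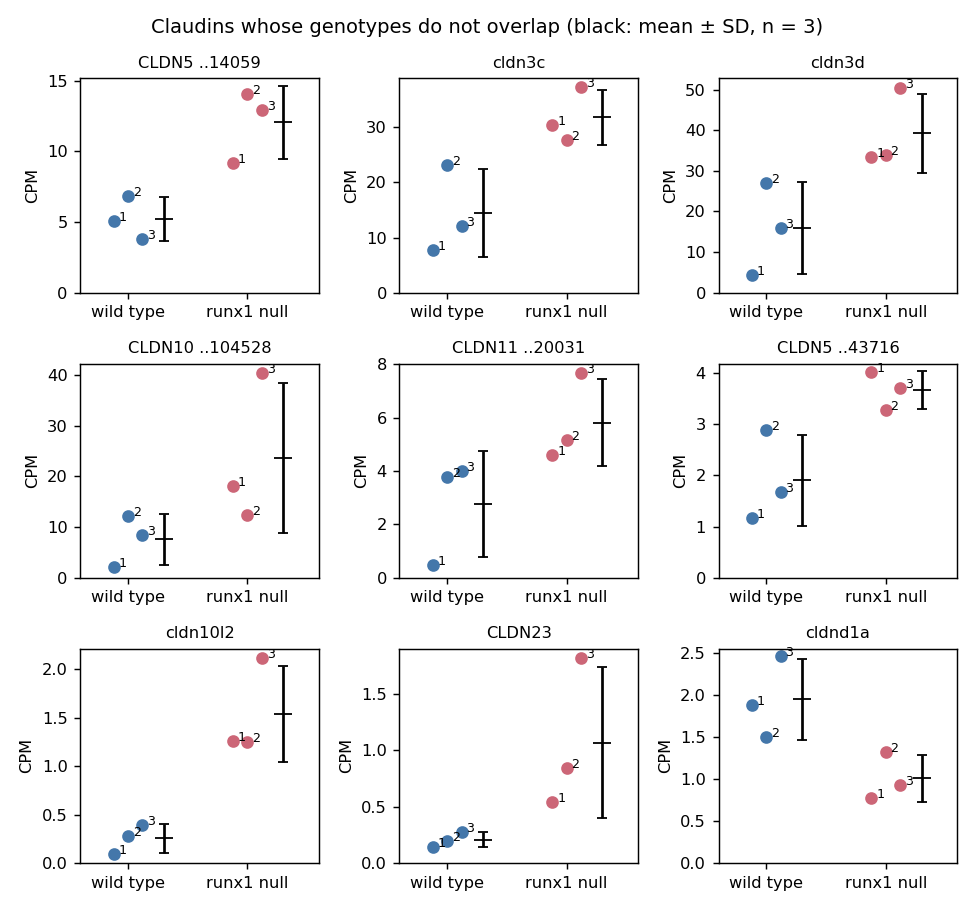
CPM of the 9 claudins whose pools do not overlap between genotypes, with numbers marking the pool and black bars the mean ± SD of 3 pools. In 8 panels all runx1 null pools lie above all wild type pools, and in the panel of cldnd1a they lie below.

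The claudin with the smallest p was cldn10l2 (ENSDARG00000105042), a zebrafish gene named as CLDN10-like. Its wild type libraries held 2, 7 and 13 counts against 21, 37 and 57 for runx1 null, or 0.256 ± 0.150 against 1.54 ± 0.496 CPM (SD, n = 3). All runx1 null pools were above all wild type pools, with a log2 difference of 2.53 (SE 0.61, edgeR p 0.00454, adjusted p 0.787; DESeq2 adjusted p 0.0590). CLDN23 (ENSDARG00000103703) had 3, 5 and 9 counts in wild type libraries against 9, 25 and 49, or 0.205 ± 0.0648 against 1.07 ± 0.667 CPM (SD, n = 3). Its log2 fold change was 2.34 (SE 0.64, edgeR adjusted p 0.811). Both genes had low counts, and neither was expressed by the limit of 1 CPM. Neither could have passed the filter on low counts by its wild type libraries. Both were thus tested because of the genotype in which they were higher, so their p-values and lack of overlap are no independent sign of a difference.

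CLDN5 ENSDARG00000014059 had a wild type mean of 5.225 ± 1.54 CPM against 12.04 ± 2.57 CPM for runx1 null (SD, n = 3), giving a log2 difference of 1.21 (SE 0.35, edgeR p 0.0107, adjusted p 0.811). CLDN5 ENSDARG00000043716 had a wild type mean of 1.91 ± 0.888 CPM against 3.67 ± 0.366 CPM for runx1 null (SD, n = 3), giving a log2 difference of 0.94 (SE 0.44, edgeR adjusted p 0.811). Neither difference passed, though both CLDN5 genes were higher in all runx1 null pools. Of the 11 endothelium list genes tested, 9 had a fold change above 0, where 47.9% of all genes did, with a median of 0.60. In edgeR 0 of them passed and 1 had an unadjusted p under 0.05, where 5.23% of all genes did. The relations of the CLDN5 genes with that list, given above, did not pass adjustment, and the cells that express them here were not determined.

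cldn3c had a wild type mean of 14.4 ± 7.98 CPM against 31.8 ± 4.98 CPM for runx1 null (SD, n = 3), giving a log2 difference of 1.14 (SE 0.42, edgeR p 0.0312, adjusted p 0.811). cldn3d had a wild type mean of 15.8 ± 11.4 CPM against 39.3 ± 9.71 CPM for runx1 null, giving a log2 difference of 1.31 (SE 0.61, edgeR adjusted p 0.811). CLDN10 ENSDARG00000104528 had a log2 difference of 1.63 (SE 0.70, edgeR adjusted p 0.811), from 7.62 ± 5.01 to 23.7 ± 14.8 CPM (SD, n = 3). CLDN11 ENSDARG00000020031 had a log2 difference of 1.07 (SE 0.73, edgeR adjusted p 0.811), from 2.76 ± 1.98 to 5.82 ± 1.63 CPM (SD, n = 3). The distal tubule score given above did not overlap between the genotypes either. With the renal epithelium score as a covariate their log2 fold changes were 0.58, 0.45, 0.48 and 0.06, in the order cldn3c, cldn3d, CLDN10 and CLDN11. In that order their r with the score was 0.93, 0.98, 0.97 and 0.96, and the score was lowest in wild type pool 1. A fit with such a covariate cannot separate genotype from the score, and the cause of the lower values was not tested. Under the same covariate CLDN5 ENSDARG00000014059 was at 1.10, CLDN5 ENSDARG00000043716 at 0.50, cldn10l2 at 1.82 and CLDN23 at 1.78, each lower than without it. Without wild type pool 1, cldn3d was at 0.85 and CLDN11 at 0.57, and without runx1 null pool 3, CLDN10 was at 1.002.

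cldnd1a alone was lower without overlap. It was at 1.88, 1.503 and 2.46 CPM in wild type and 0.778, 1.32 and 0.927 CPM in runx1 null pools, giving a log2 difference of -0.94 (SE 0.43, edgeR adjusted p 0.811). The other claudin-domain gene, CLDND1, was at -0.01 (SE 0.32, edgeR adjusted p 0.992).

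Among the claudins whose genotypes overlapped, several fold changes moved widely when 1 pool was left out. cldn15la had the largest log2 fold change of all, 5.04 (SE 2.03, edgeR p 0.0431, adjusted p 0.811), and without runx1 null pool 3 it was -0.25. CLDN2 was at 1.64 (SE 0.98), cldn15lb at 1.55 (SE 1.21) and cldn7b at 0.38 (SE 0.34), each with an edgeR adjusted p of 0.811. cldng was at -1.47 (SE 1.15, edgeR adjusted p 0.811) and cldnd at -1.32 (SE 2.14, edgeR adjusted p 0.873). Without wild type pool 3, cldng was at -0.18 and cldnd at 0.39. Without runx1 null pool 1 CLDN2 was at 0.92, and without runx1 null pool 3 cldn15lb was at 0.73. The claudins cldne and cldni, high in wild type pool 1 and runx1 null pool 3, were at -0.10 (SE 1.51) and -0.01 (SE 1.67), and CLDN12 was at -0.005 (SE 0.24).

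**Figure D5:**
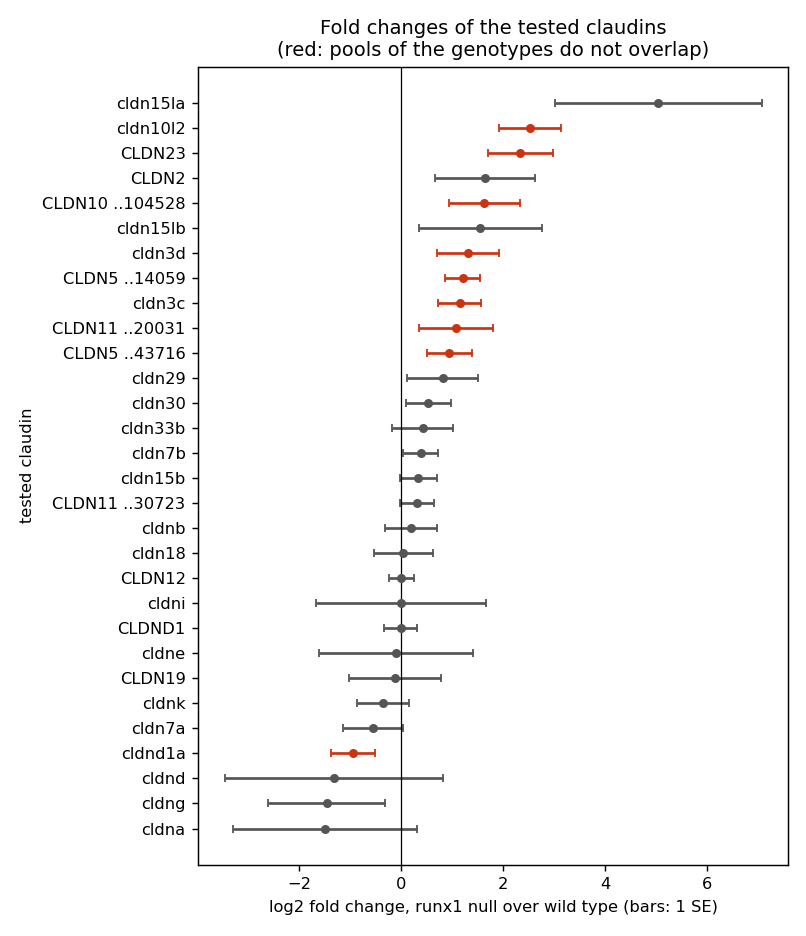
Log2 fold change of runx1 null over wild type for the 30 tested claudins, in edgeR, with bars of 1 SE. Red points are the 9 genes whose pools do not overlap; the widest bars belong to cldnd, cldn15la, cldna and cldni.

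The partners of the claudins in the junction were examined from a list of 44 names, of which 38 matched and 36 were tested. In edgeR and in DESeq2 0 passed. An unadjusted edgeR p under 0.05 was seen for 3 of the 36, where 5.23% of all genes were at that limit. The median fold change was 0.26, and 24 of the 36 were above 0, where 47.9% of all genes were. The scaffold gene TJP1 ENSDARG00000077506 was at 9.11, 25.98 and 31.5 CPM in wild type and 38.6, 38.1 and 35.4 CPM in runx1 null pools. It did not overlap, with a log2 difference of 0.75 (SE 0.44, edgeR adjusted p 0.811). CGNL1, the paracingulin gene, was at 9.07, 14.6 and 17.0 CPM in wild type and 24.8, 27.4 and 23.2 CPM in runx1 null pools (log2 fold change 0.89, SE 0.30, edgeR p 0.0213, adjusted p 0.811). The polarity gene pard6a went the same way, from 3.95 ± 1.37 to 8.83 ± 1.58 CPM (SD, n = 3; log2 fold change 1.16, edgeR p 0.0178, adjusted p 0.811). In the other direction, the scaffold gene MAGI3 ENSDARG00000101869 went from 11.9 ± 3.58 to 6.08 ± 2.51 CPM (SD, n = 3; log2 fold change -0.97, edgeR p 0.0496, adjusted p 0.811), and PATJ had a log2 difference of -0.51 (SE 0.29, edgeR adjusted p 0.811). The junctional adhesion gene f11r.1 and the kinase gene PRKCI were even, at 0.04 (SE 0.25) and 0.09 (SE 0.20). Of the 9 adherens junction genes tested 8 were above 0 and 0 passed in edgeR, with a median fold change of 0.75. Only 1 of the 9 had an unadjusted edgeR p under 0.05. It is cdh1, the epithelial cadherin, picked here for that p. It was at 19.3, 31.6 and 26.7 CPM in wild type and 44.3, 55.2 and 83.2 CPM in runx1 null pools (log2 fold change 1.24, SE 0.33, edgeR p 0.00756, adjusted p 0.811).

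Other lists set the claudins in their tissue. Over all genes tested, 47.9% had a fold change above 0 and 52.1% below. Of 7 tested renal epithelium regulators 7 had a fold change above 0, with a median of 0.997. For the distal tubule and duct list the count was 8 of 10 and the median 1.12, and for the proximal tubule list 4 of 9 and -0.03. For the oocyte list it was 0 of 13 with a median of -2.33, for the skin epidermis list 1 of 7 with -0.36, for the liver list 10 of 10 with 1.78, and for the interrenal list 6 of 6 with 1.73. The interrenal list summed to 6.08, 683 and 60.9 CPM in wild type and 2436, 50.3 and 6.30 CPM in runx1 null pools. It was thus high in runx1 null pool 1 and low in runx1 null pool 3. Blood lists lay mostly on the other side. Of the neutrophil list 6 of 7 were below 0 with a median of -1.46, of the B lymphocyte list 5 of 6 with -1.56, of the thrombocyte list 7 of 7 with -0.53, and of the erythroid list 8 of 9 with -0.48. The B lymphocyte list summed to 9.69, 43.0 and 23.6 CPM in wild type and 4.19, 2.13 and 119 CPM in runx1 null pools, so its highest sum was in runx1 null pool 3. Pancreas and intestine lists had 8 of 8 and 4 of 4 above 0, with medians of 4.06 and 6.21, and their levels were highest in runx1 null pool 3. In edgeR 0 genes of these lists passed. An unadjusted p under 0.05 was seen for 5 pancreas, 4 neutrophil, 2 intestine, 2 distal, 2 thrombocyte, 2 B lymphocyte genes and 1 skin gene. Over all genes tested 5.23% were at that limit, 2.57% higher and 2.66% lower in runx1 null. CPM are shares of a library, so a lower level of blood transcripts and a higher level of epithelial ones cannot be told apart here, and the part of these lists in the claudin fold changes was not tested.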

How the data were processed

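The authors deposited 1 table of expected counts per library, and the submitters' processing notes name STAR 2.5.26, RSEM, DESeq2 and the build GRCz10; the annotation and the use of strand were not given in the sources used here. Between 12.7% and 14.9% of nonzero values were not whole, and the counts were rounded before testing. Symbols came from a table that names 26433 of the 32266 rows; cldn15a has no row and was not analysed here. The filter was filterByExpr (minimum count 10), followed by TMM scaling and a test with the quasi-likelihood F test of edgeR 4.0.16 (R 4.3.3), genotype as the sole term, with Benjamini-Hochberg adjustment over 18864 genes at 0.05. The SE is the fold change divided by the square root of F. Log2 CPM used a prior count of 2. DESeq2 1.42.0 was an alternative. On simulated data for this comparison (18243 genes), edgeR found 72.5% of 16-fold and 6.52% of 4-fold changes, with 12.1% of 91 calls false; DESeq2 found 97.1% and 48.9%, with 39.5% of 238 calls false.

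Groups came from the sample titles. Titles share replicate numbers, but the correlations of deviations from the group means for pools 1, 2 and 3 were 0.09, -0.36 and 0.46, so the numbers were not taken as pairs. Genes given in full were the 12 expressed claudins with the highest mean CPM, those with an unadjusted p under 0.05, those without overlap and the top gene of each correlation group. The members and lists were chosen with earlier results of these data known; names of list genes were matched by symbol, by unique synonym in the RefSeq list or by a human-style symbol that both copies share. The skin, distal, proximal and interrenal lists were added to the score correlations after seeing the data. The edgeR and DESeq2 p-values set a genotype difference against the spread between pools. Exact permutation p-values of the score relations come from re-pairing the values of the pools.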

Additional observations from a re-analysis of the deposited data

How the results depend on the processing

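In every alternative run, 0 claudins and 0 tight junction partners passed an adjusted p of 0.05, and the lowest adjusted p of a claudin anywhere was 0.0590 (DESeq2). Over all genes 105 passed in DESeq2 and 2 with the renal epithelium score as a covariate, against 0. The 5 claudins at an unadjusted p under 0.05 became 2 with a mean count of at least 50, 10 with the oocyte score as a covariate (14.2% of all genes), 3 with the renal score, and 3 to 7 with libraries left out, 3 of them without wild type pool 3. With the replicate number as a block they became 8, where 4.77% of all genes were at that limit; the numbers mark no shared fish. The 9 claudins without overlap became 9 to 13 with 1 pool left out, where 18% to 27.7% of all genes did not overlap, and 20 of 29 without wild type pool 1 and runx1 null pool 3, where 41.7% did not, an alternative chosen after seeing the data. The median log2 fold change was 0.20 to 0.69 and stayed above 0. The 7 correlation groups became 11 at a tree height of 0.3 and 5 to 8 with 1 pool left out, and 69.7% of gene pairs were grouped alike without wild type pool 1, the lowest share. Of the claudins, 14 reached a mean of 5 CPM and 24 to 27 reached 1 CPM with 1 pool left out. Of the 30 tested, 17 kept their direction in all alternatives and 13 did not. None of the 30 was called, whether or not its direction held, and the cause of the reversals was not tested.

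With libraries left out, the log2 fold change ran from -0.16 to 0.095 for CLDN12, -0.041 to 0.68 for cldn7b, -4.82 to 0.39 for cldnd, -0.24 to 0.36 for CLDND1, -0.66 to 5.68 for cldn15la, -0.13 to 0.77 for cldnb. It ran from -1.76 to 3.61 for cldni, -2.58 to 2.78 for cldne, -1.31 to 0.70 for CLDN19, -2.20 to 2.83 for cldna, -0.093 to 0.72 for cldn33b and -0.35 to 0.67 for cldn18. With a mean count of at least 50 it was 0.027 for CLDN12, 0.022 for CLDND1 and 0.077 for cldni. With the oocyte score as covariate it was 1.48 for cldnd, 1.66 for cldni, 0.80 for cldne and -0.32 for cldn18. With the skin epidermis score as covariate it was 1.01 for cldnd, 0.016 for CLDND1, 1.14 for cldni, 0.25 for cldne, 0.16 for CLDN19 and 0.18 for cldna. With the renal epithelium score as covariate it was 0.35 for CLDND1, -0.69 for cldn15lb, 3.59 for cldni, 3.15 for cldne and 3.56 for cldna. With the replicate block it was 0.78 for cldni, 0.30 for cldne and -0.059 for cldn18. The covariate and block fits leave few degrees of freedom, and the skin covariate was added after seeing the data. At these depths claudins under 1 CPM rest on few counts.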
